A study of Saccharomyces cerevisiae with 32 samples.

Results

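Spt3 is a subunit of SAGA, and its occupancy of the yeast genome was followed through a heat shock on 4 arrays, replicates B to E. They were all arrays with Spt3 in the title, 4 of 28 arrays of chromatin immunoprecipitation (ChIP) and of 32 in the series. Each compared heat shocked with mock treated cells of Saccharomyces cerevisiae carrying HA-Spt3. The heat shocked cultures spent 15 min at 37 °C after an equal volume of warmed YPD medium was added at an OD600 of about 0.8, and the mock treated cultures spent the same 15 min at 25 °C. All were then fixed with 1% formaldehyde for 2 h. Spt3 was set against 4 arrays of a strain labelled Null, replicates A to D, treated the same way. That strain is called BY4741 on the RNA arrays, and the labels name no tag for it. A second comparison used 4 arrays of HA-TAF1, with 4 of HA-TBP beside them, and 4 RNA arrays of the Null strain (2 of heat shocked against mock treated cells, 2 of mock treated cells in both channels) gave the RNA changes. Nothing in the labels says that replicates came from separate cultures, so the p-values measure only the spread between arrays, which may be technical. For the fitted ChIP effects that spread was pooled over all 28 ChIP arrays, so it is not that of the Spt3 and Null arrays alone.

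SAGA is a coactivator complex that is brought to promoters by activators, modifies histones and delivers the TATA-binding protein (TBP). Spt3 is the subunit that, with Spt8, contacts TBP. TFIID, of which TAF1 is a core subunit, is the other complex that delivers TBP, and many stress-induced promoters are known to lean on SAGA while ribosome-related promoters are known to lean on TFIID.

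The array holds 7047 intergenic regions. The 6392 that were measured by 3 or 4 arrays in each of the 7 ChIP groups were tested. Values are log2 ratios, heat shocked over mock treated DNA, with the median of each array set to 0, so a value of 0 means a change like that of the middle region of the array. A fitted effect is the coefficient of a linear model (limma) over all 28 arrays with a channel effect taken off, given with its standard error, and a region was called at a Benjamini-Hochberg adjusted p under 0.05. The sources used here do not say which dye channel was the numerator. Channel 1 over channel 2 is the likely reading, because TBP at chaperone promoters then runs with RNA, and that basis was chosen after the values were seen. Under the other reading every ChIP sign below reverses. Without centring, the median region stood at -0.16 for Spt3 and at -0.91 for Null, and their median difference was 0.75, against 0.02 with centring, so the changes are relative to the array and not absolute.

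The arrays differed in width. The median absolute deviation was 0.481 on Spt3 B, against 0.236, 0.232 and 0.207 on Spt3 C, D and E, and on the Null arrays A and B it was 0.528 and 0.407, against 0.170 and 0.153 on C and D. Between pairs of Spt3 arrays, with the channel effect taken off, the rank correlation over regions ran from 0.130 to 0.569. Between pairs of Null arrays it ran from -0.140 to 0.231, and between Spt3 and Null arrays from -0.122 to 0.248. Before the channel effect was taken off, Spt3 arrays of opposite dye order had Pearson correlations of -0.382 to -0.140. Their rank correlations were 0.116 to 0.160. Values given array by array for a region still hold the channel effect, and those given for a list do not. Input DNA, hybridised as TAF1 strain over Spt3 strain, gave 1 called region. An unadjusted limma p under 0.05 was found there at 36 of the 6392 regions, and at none of those called for Spt3. With so few in all, that absence says little. The input arrays set strain against strain, so they do not test the heat effect of Spt3.

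Heat shock was followed by higher Spt3 signal at 248 regions and lower signal at 113. They made up 3.88% and 1.77% of all regions tested. Most changes were small: 9 of the 361 called regions were at least 2-fold changed, and the arrays disagreed among themselves at several of these. At DNF2, picked after its values were seen, Spt3 stood at 4.55, 1.05, 2.64 and -0.33, and none of the 9 passed against Null. The sign was the same on all 4 Spt3 arrays, with the channel effect taken off, at 238 of the 248 and at 109 of the 113. In the Null strain 2 regions were called in either direction (0.0313%), although an unadjusted p under 0.05 was found at 1342 regions for Spt3 and at 1270 for Null. The calls rested on the spread estimated over all 28 arrays. The Spt3 and Null arrays on their own gave 0 calls for Spt3 by limma, with 827 regions at an unadjusted p under 0.05. Leaving out Spt3 B left 118 higher and 8 lower, leaving out C left 107 and 23, and leaving out E left 110 and 33.

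Set against Null directly, Spt3 was higher at 49 regions and lower at 12, which was 0.767% and 0.188% of those tested. Of these 61 regions 46 were also called for Spt3 on its own, 41 of them higher and 5 lower. Among 6071 regions with all 8 values, the 4 Spt3 arrays lay above the 4 Null arrays at 245 (4.04%) and below them at 168 (2.77%). Of the called regions with all 8 values, 41 of 47 that were higher and 7 of 11 that were lower had no overlap between the groups. They were called for a difference between these same arrays, so that separation reflects the choice and adds no support to the calls. The number depended on the Null arrays. It was 8 without Null A and B, the wider ones, 5 of them among the 61, and 1093 without Null C and D. It was 286 without Null C alone and 190 without Null D alone. Leaving out Spt3 B, C or E left 40, 25 or 37 regions. With arrays weighted by their quality 266 regions were higher and 61 lower. Without centring 12 were higher and 0 lower. The Spt3 and Null arrays on their own gave 0 calls for the difference by limma, with 528 regions at an unadjusted p under 0.05.

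**Figure D1:**
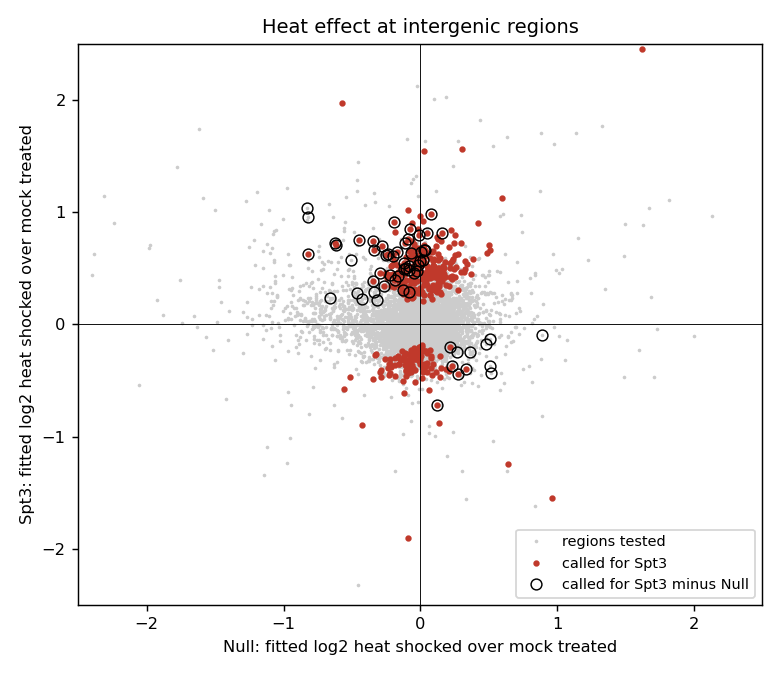
Fitted heat effect of Spt3 (vertical axis) against that of Null (horizontal axis), both in log2 of heat shocked over mock treated, for 6392 regions (grey), with the 361 regions called for Spt3 in red and the 61 called for Spt3 minus Null ringed. Many of the ringed regions on the upper left combine a higher value in Spt3 with a value under 0 in Null.

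Of the 10 largest named differences above Null, between 0.98 and 1.87, 9 were at promoters and 1 was at an unnamed region. At UBI4, which encodes polyubiquitin, the values were 0.65, 1.11, 0.80 and 1.09 on Spt3 B to E, against 0.34, -0.85, -0.16 and -0.11 on Null A to D. All 4 Spt3 values lay above all 4 Null values. The fitted difference was 1.11 ± 0.21 (2.15-fold, limma adjusted p = 0.00993), and it was called with each of the 8 arrays left out in turn. Without Null A and B together it was 1.05, with an adjusted p of 0.0841.

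At HSP78, the gene of a mitochondrial disaggregase, Spt3 stood at 0.87, 0.62, 0.48 and 0.52, against -0.63, -0.03, -0.13 and -0.23 in Null. The groups did not overlap, and the difference was 0.88 ± 0.14 (limma adjusted p = 0.00338), called with each array left out in turn. BAT2 encodes the cytosolic branched-chain aminotransferase. Its promoter gave 0.55, 1.02, 0.65 and 1.19 in Spt3, against 0.01, -0.13, -0.15 and -0.04 in Null. Every Spt3 value was above 0.5 while the Null values lay near 0, and the difference was 0.93 ± 0.14 (limma adjusted p = 0.00241). It was called in 19 of 21 alternative analyses, also without Null A and B (0.95, adjusted p = 0.026).

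The regions before YPR1, an aldo-keto reductase gene, and ARO10, which encodes a phenylpyruvate decarboxylase, had the lowest adjusted p-values among the 10 largest named differences. YPR1 stood at 0.80, 0.72, 0.78 and 0.61 in Spt3, against -0.80, -1.37, -0.40 and 0.08 in Null. The difference of 1.35 ± 0.20 (limma adjusted p = 0.00241) thus combined higher values in Spt3 with values under 0 on 3 Null arrays, and without Null A and B it was 0.89 (adjusted p = 0.0186). Of the regions named by the rule, YPR1, ARO10 and BAT2 were the ones that still passed against Null without both arrays. ARO10 followed it almost exactly, with a difference of 1.33 ± 0.18 (limma adjusted p = 0.00165), and on none of the 8 arrays did these regions differ by more than 0.142. Whether these regions share sequence was not tested. Both were called with each array left out in turn, and so were DIP5 and YAP1801 with MPC2. DIP5, an amino acid permease gene, stood at 0.98 ± 0.18 (limma adjusted p = 0.00927), and the shared region of YAP1801 and MPC2, genes of a clathrin adaptor and of the mitochondrial pyruvate carrier, at 1.09 ± 0.20 (limma adjusted p = 0.00863).

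Other leading differences lost their call when 1 or another single array was left out. The region before ACO1, the aconitase gene, stood at 1.32, 0.89, 0.58 and 1.03 in Spt3, against -2.93, -0.41, -0.19 and 0.24 in Null. The Spt3 values were all higher than the Null values, and Null A was by far the lowest. The SD of the arrays was 0.31 in Spt3 and 1.43 in Null, so the pooled standard error understates the spread of Null here. The difference was 1.78 ± 0.41 (limma adjusted p = 0.0369), and 0.93 without Null A and B (adjusted p = 0.224). The call was also lost without Null B alone or Spt3 B, C or E. At HLJ1, the gene of a membrane-bound co-chaperone, Null B stood at -1.63 and the other Null arrays between -0.28 and 0.01, against 0.30 to 0.73 in Spt3, and the difference of 1.08 ± 0.26 (limma adjusted p = 0.0456) was 0.70 without Null A and B (adjusted p = 0.224) and lost its call without Null B or any 1 Spt3 array. The region before SRP72, which encodes a subunit of the signal recognition particle, gave 1.16, 0.26, 1.33 and 0.26 in Spt3. Null stood there at -1.65, 0.29, -0.36 and -0.07, so the groups overlapped. The difference was 1.20 ± 0.26 (limma adjusted p = 0.0233), and it lost its call without Null A, Spt3 B or Spt3 D. An unnamed region, number 2032, had a difference of 1.87 ± 0.46 (limma adjusted p = 0.0491) with overlapping groups, and lost its call without Null A, Null B, Spt3 C or Spt3 D.

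**Figure D2:**
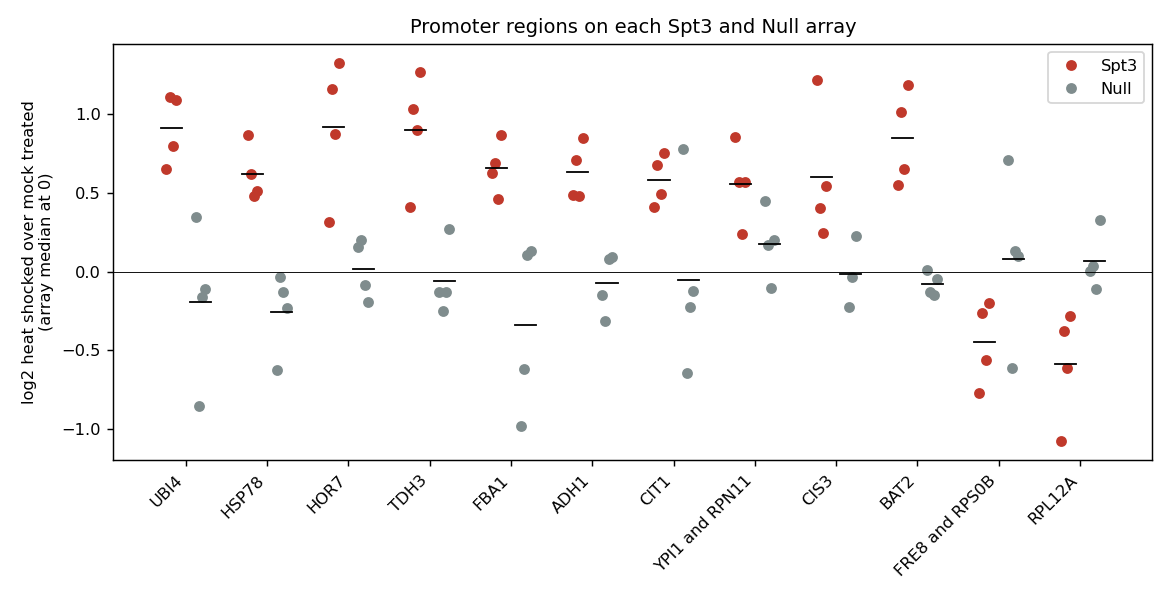
Log2 of heat shocked over mock treated at 12 promoter regions on each Spt3 array (red, left of each pair) and each Null array (grey, right), with the mean of each group as a bar and no channel effect taken off. At 8 of the first 10 regions every Spt3 value is above every Null value, with overlap at CIT1 and at YPI1 and RPN11, while RPL12A and the shared region of FRE8 and RPS0B lie under 0 on all 4 Spt3 arrays. The regions shown were picked from those already named for large effects, so the count of 8 reflects that choice. Among 6071 regions with all 8 values, 4.04% had every Spt3 value above every Null value.

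Of the 12 regions where Spt3 was called lower than Null 7 lay between convergent genes, where no promoter is expected, 4 bordered promoters and 1 was unnamed. That was 0.522% of the 1340 convergent regions tested and 0.0962% of the 4158 that border a promoter, against 0.188% of all regions. The 8 of the 12 named by the rule include all 7 convergent ones. The region downstream of YDL114W stood at -0.44, -0.62, 0.03 and -0.47 in Spt3, against 0.25, 0.91, -0.20 and 1.08 in Null, with overlap, and the difference was -0.88 ± 0.17 (limma adjusted p = 0.012). It lost its call without Spt3 B (adjusted p = 0.053). The region downstream of CCT4 gave -0.44, -0.34, -0.36 and -0.45 in Spt3, against 0.47, 0.61, 0.23 and 0.03 in Null. These groups did not overlap, and the difference was -0.73 ± 0.16 (limma adjusted p = 0.0241), with the call lost without Null A or B or Spt3 B, C or E. At STE2 downstream one Spt3 array, B, stood at -1.66 and the others between -0.45 and -0.36, against -0.16 to 0.60 in Null, and the difference of -0.85 ± 0.20 (limma adjusted p = 0.0456) lost its call without Null A or B or Spt3 B, C or E. The region downstream of RPL40A held its call with every array left out, at -0.42 ± 0.08 (limma adjusted p = 0.0104), although Spt3 and Null overlapped. The remaining 4 regions stood between -0.71 and -0.51, and each lost its call without Null B, Spt3 B or Spt3 C. Other arrays also decided the call at 3 of them, ERG4 downstream, GDT1 downstream and region 2213, which lost it without Null A too.

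Regions that border promoters and regions that do not were described apart. Of 4158 tested regions that border at least 1 promoter, Spt3 was higher at 212 (5.10%) and lower at 44 (1.06%). Their median effect was 0.04. Of 1340 regions between convergent genes, Spt3 was higher at 10 (0.746%) and lower at 44 (3.28%), with a median of -0.09. The 1442 regions between divergent genes, which hold a pair of promoters, had 99 higher (6.87%) and 10 lower (0.693%), with a median of 0.07. The 2716 with 1 promoter had 113 (4.16%) and 34 (1.25%), with a median of 0.02. The median over all regions was 0.01, with 3.88% higher and 1.77% lower. Next to tRNA genes 10 of 442 regions were higher (2.26%) and 6 lower (1.36%), both under the shares over all regions.

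The promoter regions exceeded the convergent regions on each Spt3 array. The difference between their medians was 0.283, 0.0817, 0.0438 and 0.140 on Spt3 B to E, against 0.0762, -0.0643, 0.0184 and 0.0381 on Null A to D. Spt3 D lay within the range of the Null arrays, so the groups overlapped. The mean was 0.137 ± 0.105 in Spt3 and 0.0171 ± 0.0594 in Null (SD, n = 4 each). A two-sided exact permutation test gave p = 0.0571, where the smallest that 4 arrays against 4 allow is 0.0286. With the channel effect taken off p was 0.0857, so the difference did not pass. The same split was seen for TAF1, with medians of 0.04 at promoters and -0.11 at convergent regions, and for TBP, with 0.04 and -0.12, against -0.01 and -0.02 in Null.

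Promoters of heat shock chaperones had a median Spt3 effect of 0.17, against -0.08 in Null, and the list median was 0.21, 0.12, 0.21 and 0.21 on the 4 Spt3 arrays. Of 35 regions 5 rose and 0 fell for Spt3. Over all regions that border a promoter 5.10% rose, 1.06% fell and 1.11% were called higher than Null. Those are the shares to set beside this and the later list counts, and counts near them are not read as traits of a list. Besides UBI4 (0.91 ± 0.15) and HSP78 (0.62 ± 0.10), the region shared by SSC1, the mitochondrial Hsp70 gene, and TAH11 rose by 0.52 ± 0.14. The others, named after their values were seen, were the region of TAD2 and KAR2, the Hsp70 gene of the endoplasmic reticulum, at 0.52, and the J-protein gene APJ1, at 0.41. UBI4 and HSP78 were the 2 that passed against Null. UBI4 is a member of the list but encodes polyubiquitin, not a chaperone. With Spt3 B, C or E left out 2 regions of the list were called for Spt3.

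Of 41 regions of general stress genes 6 rose and 1 fell, with a median of 0.18 in Spt3 and -0.06 in Null, and 3 passed against Null. HOR7, a gene induced by osmotic stress, stood at 0.32, 1.16, 0.88 and 1.33 in Spt3, against 0.15, 0.20, -0.08 and -0.19 in Null. The groups did not overlap. The Spt3 effect was 0.92 ± 0.17 (limma adjusted p = 0.0029), while the difference from Null, 0.90 ± 0.25, did not pass (limma adjusted p = 0.0639). The region shared by HNT1, a nucleotide hydrolase gene, and the reductase gene YDL124W stood at 0.82, 0.60, 0.40 and 0.82, against 0.34, -0.19, -0.12 and 0.08 in Null, again with no overlap. Its difference was 0.64 ± 0.12 (limma adjusted p = 0.0104), called with each array left out. Without Spt3 C or E 3 regions of the list rose. The 1 region that fell was a segment before the hexokinase gene HXK1, at -0.23 ± 0.07 (limma adjusted p = 0.0427), and that call was lost with any 1 Spt3 array left out. Its difference from Null, -0.16 ± 0.09, did not pass (limma adjusted p = 0.358), and HXK1 RNA rose, at 5.12. In trehalose and glycogen metabolism 1 of 19 regions rose, between CUE4 and the trehalose synthase gene TSL1 (0.61 ± 0.11), and in hexose transport 0 of 23 rose and 1, the same HXK1 segment, fell.

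Promoters of glycolysis and fermentation had the highest median Spt3 effect of the 19 lists, 0.27, against -0.05 in Null. The list median was 0.32, 0.28, 0.29 and 0.24 on Spt3 B to E, against -0.16, -0.17, -0.05 and 0.01 on Null A to D. Of 19 regions 7 rose for Spt3 and 0 fell. They were TDH3, FBA1, ADH1 and, named after their values were seen, PDC1, PGI1, GPM1 and the region shared by TDH2 and MET3. These are genes of the glycolytic core and of ethanol formation, apart from MET3. TDH3, the main glyceraldehyde phosphate dehydrogenase gene, stood at 0.41, 1.03, 0.90 and 1.27 in Spt3, against -0.13, -0.25, -0.13 and 0.27 in Null. All Spt3 values were above all Null values, and the effect was 0.90 ± 0.17 (limma adjusted p = 0.00287), but the difference from Null, 0.96 ± 0.24, just missed the threshold (adjusted p = 0.0534).

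ADH1, the fermentative alcohol dehydrogenase gene, gave 0.49, 0.71, 0.48 and 0.85 in Spt3, against -0.15, -0.31, 0.08 and 0.10 in Null. Its difference was 0.70 ± 0.17 (limma adjusted p = 0.0476). FBA1, the aldolase gene, had a difference of 1.00 ± 0.23 (limma adjusted p = 0.0369). These were the 2 that passed against Null, and neither did without Null A and B together (limma adjusted p = 0.492 and 0.571). Either call was also lost without Null A, Null B or Spt3 B, C or E alone, and that of ADH1 without Spt3 D. TDH3 RNA was at -0.03, ADH1 RNA at -0.07 and FBA1 RNA at -0.45, none of them called in limma, and the list median of RNA was -0.20 over 20 genes. The count of 7 became 2, 3 and 3 without Spt3 B, C and E.

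Respiration and the tricarboxylic acid cycle, the proteasome and the cell wall also had medians above the 0.01 of all regions. Of 45 regions of respiratory genes 4 rose and 0 fell, with a median of 0.17 in Spt3 and -0.03 in Null. CIT1, the citrate synthase gene, stood at 0.41, 0.68, 0.50 and 0.76 in Spt3, against 0.78, -0.64, -0.22 and -0.12 in Null. The effect was 0.58 ± 0.15 (limma adjusted p = 0.0291) and Null A overlapped Spt3. The other 3 were SDH3 (0.46), a succinate dehydrogenase subunit gene, the region of CYC7 and UTR4 (0.40) and, named after its value was seen, that of ATP7 and PUT3 (0.27). All 4 calls were lost without Spt3 B, C or E.

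Of 32 proteasome regions 5 rose and 0 fell, with a median of 0.21 in Spt3 and 0.01 in Null. The region shared by YPI1 and RPN11, the lid deubiquitinase gene, stood at 0.85, 0.57, 0.24 and 0.57 in Spt3, against 0.45, 0.17, -0.10 and 0.20 in Null. Its effect was 0.56 ± 0.12 (limma adjusted p = 0.0107), the groups overlapped, and the difference of 0.38 ± 0.18 did not pass (adjusted p = 0.241). PRE4, a core particle gene, rose by 0.45 ± 0.11. The list had 1 call without Spt3 B, and 3 without C or E.

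Of 26 cell wall regions 6 rose and 0 fell, with a median of 0.21 in Spt3 and -0.01 in Null. They lay before BGL2 (0.65 ± 0.16), a glucanase gene, CIS3 (0.60 ± 0.13), a mannoprotein gene measured on 3 Null arrays, CWP1, GFA1 and, in 2 regions, genes of the PIR family of wall proteins. The last 3 regions were named after their values were seen. GFA1, which encodes the first enzyme of chitin precursor synthesis, stood at 0.47, 0.49, 0.29 and 0.59 in Spt3, against -0.58, -0.44, -0.04 and -0.10 in Null, and its difference of 0.75 ± 0.12 passed (limma adjusted p = 0.00338). The list had 3 calls without Spt3 B.

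Of 58 regions of amino acid genes 7 rose and 0 fell, with a median of 0.15 in Spt3 and 0.02 in Null. Besides BAT2 they included ARG3, the ornithine carbamoyltransferase gene, at 1.16, 0.73, 0.96 and 0.43 in Spt3, against 0.14, -0.15 and -0.48 on the 3 Null arrays that measured it. The Spt3 effect was 0.82 ± 0.19 (limma adjusted p = 0.0161). The region of GTO1 and CYS4, a gene of cysteine synthesis, had a difference of 0.55 ± 0.13 (limma adjusted p = 0.0441), a call lost without Null B or Spt3 B, C or E. The list had 3 calls without Spt3 B, C or D. Of 20 regions of oxidative defence genes 2 rose, TRX2, a thioredoxin gene, by 0.56 ± 0.13 and TSA1, a peroxiredoxin gene, by 0.46 ± 0.11. Null stood at 0.32 and 0.29 there, and neither difference from Null passed (limma adjusted p = 0.49 and 0.56). Without Spt3 B 0 regions of the list rose, and without D 1 did.

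Cytosolic ribosomal protein genes had the lowest median of the lists, -0.16, against 0.04 in Null. On the 4 Spt3 arrays the list median was -0.13, -0.20, -0.14 and -0.15, against -0.04, 0.04, 0.00 and 0.17 on the Null arrays, and these ranges did not overlap. That was common among the lists. Spt3 lay wholly above Null for chaperones, general stress, trehalose and glycogen, glycolysis, respiration, the proteasome, the cell wall and SAGA subunits. It lay wholly under Null at promoters known to need SAGA (-0.0543 to -0.00291, against 0.0364 to 0.323). Of 128 regions 7 fell and 1 rose. RPL12A fell by 0.59 ± 0.16 (limma adjusted p = 0.0308), with -1.08, -0.38, -0.61 and -0.28 in Spt3, against 0.00, 0.04, -0.11 and 0.33 in Null. All its Spt3 values were under all its Null values, but the difference of -0.65 ± 0.22 did not pass (limma adjusted p = 0.125), and the call for Spt3 was lost with any 1 Spt3 array left out. No region of the list passed against Null. The 1 region that rose was RPL15B, with 0.98, 0.42, 0.46 and 0.40 in Spt3, against 0.20, -0.02, -0.11 and 0.32 in Null (0.57 ± 0.11, limma adjusted p = 0.0026). Without Spt3 B 0 of the list fell, without C or E 1 did and without D 3 did, with medians from -0.17 to -0.14. RNA of these genes had a median of -1.92 over 133 genes.

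Ribosome biogenesis genes, whose RNA had a median of -2.02 over 66 genes, had a median Spt3 effect of 0.03, against 0.05 in Null. Of 63 regions 0 rose and 0 fell for Spt3. The largest effect, 1.82 ± 0.90 at the region of TAF6 and NSA1, was measured on 3 Spt3 arrays that ranged from -0.03 to 3.92 and was not called. The region of GTF1 and NOP7 was lower than Null (-0.64, limma adjusted p = 0.0244), with Null at 0.51, and was singled out after its values were seen.

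Of the remaining lists, translation factor genes had 2 of 29 regions higher for Spt3 (median 0.06), histone genes 1 of 6 (0.18), mitochondrial ribosomal protein genes 3 of 48 (0.07) and mating genes 1 of 19 (-0.02). In the same order the Null medians were 0.07, 0.12, -0.01 and 0.03. Promoters of SAGA subunit genes had 0 of 18 (0.08, Null -0.01), those of TFIID subunits and TBP regulators 1 of 19 (0.05, Null -0.02). With 5.10% higher over all regions that border a promoter, no trait of a list is read from counts this small. Promoters known to need SAGA under other conditions had 3 of 34 higher and 0 lower, with a median of -0.03, against 0.09 in Null. These were ADH1, MFA2, the a-factor gene, which rose by 0.35 ± 0.08, and the region of YET3 and BDF2, which rose by 0.50 ± 0.08 and passed against Null at 0.61 ± 0.11 (limma adjusted p = 0.00927). ACT1, the actin gene, in no list, stood at 0.31, -4.62, 0.28 and -1.20 on the Spt3 arrays and was not called (-1.31 ± 0.43, limma adjusted p = 0.0731).

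**Figure D3:**
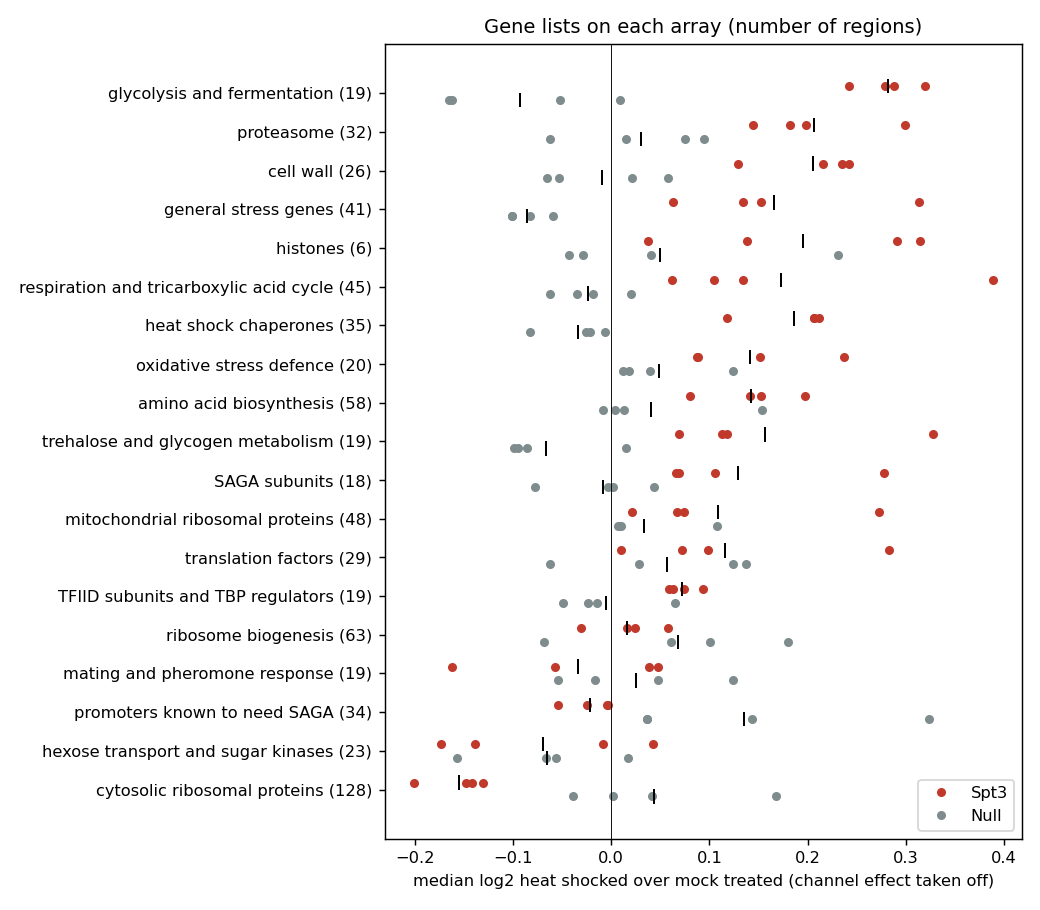
Median log2 of heat shocked over mock treated over the promoter regions of each of 19 gene lists, on each Spt3 array (red) and each Null array (grey), with the channel effect taken off, the mean of the 4 arrays as a bar and the number of regions in brackets. Glycolysis and fermentation is at the top (0.24 to 0.32 on the Spt3 arrays, against -0.17 to 0.01 on the Null arrays) and cytosolic ribosomal proteins are at the bottom (-0.20 to -0.13, against -0.04 to 0.17).

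Spt3 was next compared with TAF1, as subunits of the complexes that deliver TBP. The effect of Spt3 exceeded that of TAF1 at 132 regions (2.07%) and was under it at 127 (1.99%). With arrays scaled to equal spread the numbers were 96 and 59. The count of 259 became 83 higher and 60 lower without Spt3 C, and in all it was 136 without Spt3 E, 105 without TAF1 A and 89 without TAF1 B.

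Of 63 ribosome biogenesis regions 21 were higher for Spt3 than for TAF1 and 0 lower, and the list medians were 0.03 for Spt3 and -0.56 for TAF1, with TBP at -0.40 and Null at 0.05. On single arrays the median was 0.02, -0.03, 0.06 and 0.02 for Spt3, against -0.61, -0.86, -0.37 and -0.33 for TAF1. The ranges did not overlap. Over the 21 regions Spt3 effects ran from -0.11 to 0.38 and TAF1 effects from -1.24 to -0.45. The count was 12 without TAF1 B and 25 without TAF1 C.

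The largest difference of these, chosen after the values were seen, was in the region of the ribosome assembly genes NSA2 and LCP5. Spt3 stood there at 1.21, 0.01, 0.22 and 0.08, against -1.44, -1.89, -0.70 and -0.93 for TAF1, and the difference was 1.62 ± 0.24 (limma adjusted p = 0.00148). RPF1, another assembly factor gene picked after its values were seen, gave 0.12, 0.05, 0.17 and 0.24 for Spt3, against -1.63, -1.25, -0.58 and -0.61 for TAF1, with a difference of 1.16 ± 0.20 (limma adjusted p = 0.00321). At both, every TAF1 value was under every Spt3 value.

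In the other direction 5 of 41 general stress regions and 5 of 32 proteasome regions were lower for Spt3 than for TAF1. The 5 general stress regions, named after their values were seen, were SSE2, ALD3, GPX1, the region of PAI3 and SIP18 and that of GRE1 and FMP40. GPX1, a peroxidase gene, stood at 0.19, -0.17, -0.09 and -0.11 for Spt3, against 1.27, 1.08, 0.72 and 0.59 for TAF1, and the difference was -0.96 ± 0.17 (limma adjusted p = 0.00321). SSE2, a nucleotide exchange factor gene for Hsp70, gave 0.47, -0.10, 0.44 and 0.03 for Spt3, against 1.62, 1.79, 0.82 and 0.74 for TAF1, a difference of -1.03 ± 0.27 (limma adjusted p = 0.0335). KGD1, a gene of the tricarboxylic acid cycle also named after its values were seen, was the 1 respiratory region lower for Spt3, at 0.04 against 0.84 for TAF1 (limma adjusted p = 0.00195). The proteasome medians were 0.21 for Spt3 and 0.44 for TAF1. With Spt3 C, Spt3 E, TAF1 A or TAF1 B left out 0 proteasome regions passed, without Spt3 D 1 did and without TAF1 C or D 3 did. With TAF1 A or B left out 2 general stress regions passed.

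At the glycolytic promoters the median was 0.27 for Spt3, against 0.07 for TAF1, with 0 of 19 differences called. TDH3 differed by 0.75 (limma adjusted p = 0.0809). Among the regions named by the rule, those that passed included ARG3, higher for Spt3 by 1.05 ± 0.27 (limma adjusted p = 0.0323), a segment before CWP1, by 0.58 ± 0.14 (0.0198), and the region of the histone variant gene HTZ1 and PLB3, by 0.53 ± 0.11 (0.00844).

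**Figure D4:**
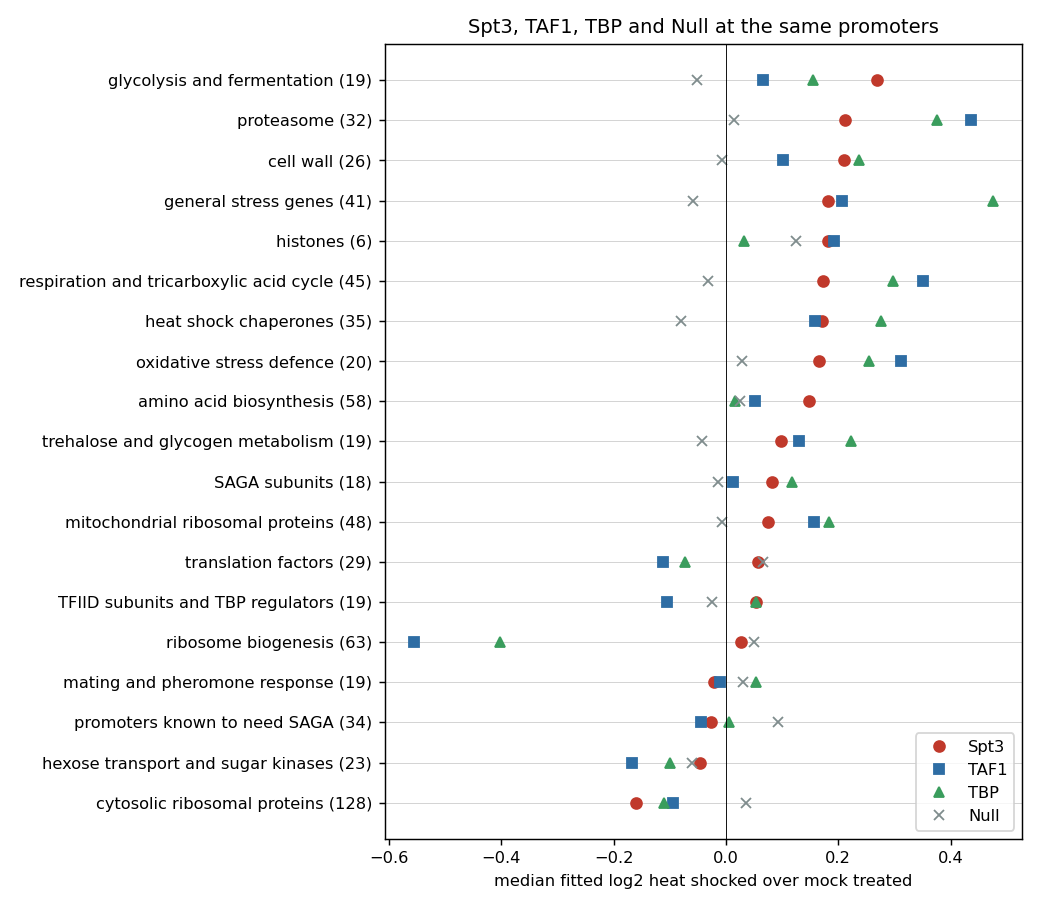
Median fitted effect (log2 of heat shocked over mock treated) over the promoter regions of 19 gene lists for Spt3 (circles), TAF1 (squares), TBP (triangles) and Null (crosses). At ribosome biogenesis genes Spt3 is at 0.03 with Null at 0.05, while TAF1 is at -0.56 and TBP at -0.40.

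Spt3 changes were then set beside RNA changes at 2572 regions with 1 promoter and 1 RNA probe for its gene. On the RNA arrays 18.2% of all probes rose and 18.9% fell, and at these regions 21.8% of the genes rose and 20.3% fell. Of 110 promoters where Spt3 was called higher, RNA of the gene rose at 49 (44.5%) and fell at 10 (9.09%). Of 32 where Spt3 was called lower, it rose at 5 and fell at 10. Of 27 promoters higher for Spt3 than for Null, RNA rose at 17 and fell at 2. They included UBI4 (RNA 3.91), ARO10 (4.38), HSP78 (2.56), BAT2 (1.63) and DIP5 (1.33), while RNA of SRP72 fell, at -0.60.

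Read from RNA, of 247 promoters of genes whose RNA rose at least 2-fold, Spt3 was called higher at 31 and lower at 1, with a median of 0.13, against -0.07 in Null, and 14 passed against Null. TAF1 and TBP had medians of 0.23 and 0.24 there. Over all 2572 regions Spt3 was called higher at 110 and lower at 32, and 27 were called higher than Null. Of 298 promoters of genes whose RNA fell at least 2-fold, Spt3 was higher at 6 and lower at 8, with a median of -0.01, against 0.04 in Null, where TAF1 and TBP stood at -0.22 and -0.20. As a description across regions, which are not independent replicates, the rank correlation with RNA was 0.11 for Spt3, 0.41 for TAF1, 0.44 for TBP and -0.14 for Null. On single arrays, with the channel effect taken off, it was 0.13, 0.12, 0.02 and 0.09 for Spt3, against -0.05, -0.09, -0.16 and -0.23 for Null. The direction of the ChIP ratios was itself read from TBP and RNA at chaperone promoters, so the sign of these relations is not independent of that choice.

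**Figure D5:**
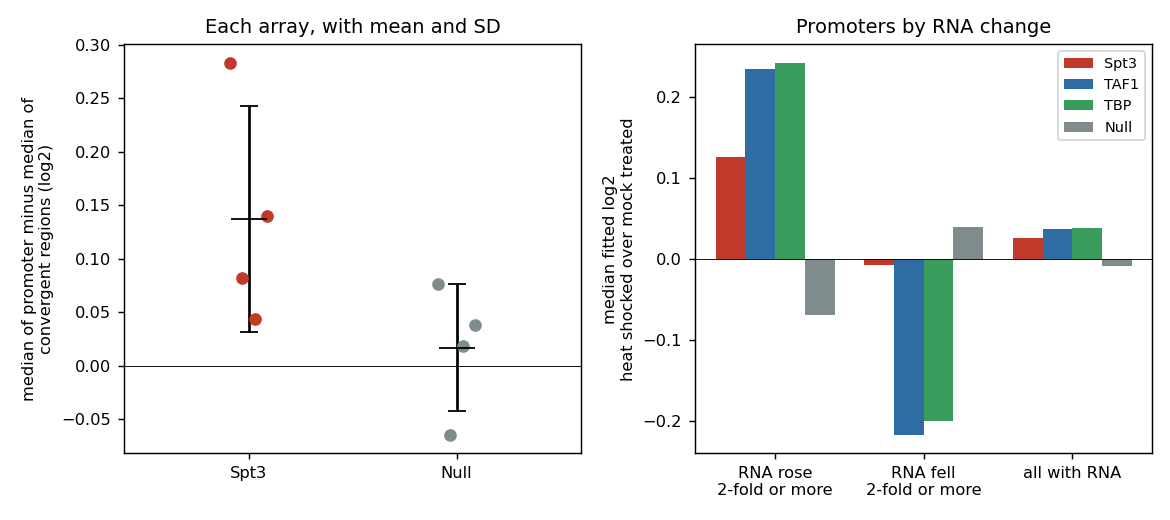
Left, the median of promoter regions minus the median of convergent regions on each array (log2 of heat shocked over mock treated) for Spt3 and Null, with the mean and SD of 4 arrays. Right, the median fitted effect of Spt3, TAF1, TBP and Null at 247 promoters whose RNA rose at least 2-fold, at 298 whose RNA fell at least 2-fold and at all 2572, with Spt3 at 0.13, -0.01 and 0.03.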

How the data were processed

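Scanning of the 28 ChIP arrays and 4 RNA arrays used, per the labels, GenePix Pro 4.0 software on a GenePix 4000A instrument. The deposited values are log2 ratios of the channels, whose array medians differ from 0; the sources used here do not give the background correction, normalization or spot filters. The sign of an array was set by the channel labelled heat shocked, and its median was then subtracted. Models were fitted with limma 3.58.1 in R 4.3.3, with a heat coefficient for each group and a channel effect shared by all arrays, the input arrays entering as TAF1 strain over Spt3 strain, and Benjamini-Hochberg adjustment over all 6392 regions. RNA ratios were read as channel 2 over channel 1, because chaperone RNA then rises, for 6772 probes. The number of arrays, 4 per group, limits the precision. The model was tested on simulated arrays with independent normal noise, which lack single-array outliers such as those described here. An effect of 0.5 placed in Spt3 was recovered for Spt3 minus Null at 50% of regions, and 1 of -0.5 at 56%.

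Genes were paired with probes by the platform annotation and a RefSeq table (assembly R64), used for names and neighbours only. A region was placed to the right of the gene that names it, and small or noncoding genes that name no region were not taken as borders, a rule settled after values had been seen. Downstream after a gene's name marks a region between convergent genes, named from the gene on its left. Regions bordering 2 promoters count for both genes.

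The lists, members and tests were chosen with earlier results of these data known. Named regions were the 10 highest and up to 10 lowest differences from Null among called regions with all 8 values and Spt3 values, with the channel effect taken off, of the sign of the difference on all 4 arrays, up to 3 called regions per list by size of the Spt3 effect (the largest effect where none was called), and ACT1; others are marked where they appear, and 1 region is not reported here. Exact permutation tests used scipy 1.17.1. Replicate letters did not pair the arrays (correlations of deviations -0.04, 0.08 and -0.11 for B, C and D). Alternatives changed the centring, scaling, arrays, channel effect, weights, filters and variance prior. Sequences were not used here.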

Additional observations from a re-analysis of the deposited data

Results flagged for a closer look

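In 11 groups of 4 arrays 1 value lay far from the other 3. That was 7.43% of the groups counted, some of which lacked a value and could not be flagged. Chance gives about 1 in 20 for independent normal values. These groups share arrays, and many regions were picked by their values, so that rate is only a rough guide. Several were on Spt3 B, the widest Spt3 array. Its median absolute deviation was 0.481, against 0.207 to 0.236 on the others. It stood at -1.66 downstream of STE2 (others -0.45 to -0.36), at 0.98 before RPL15B (others 0.40 to 0.46) and at 1.83 before MRPL25 (others 0.17 to 0.37). Spt3 D stood at 0.23 in the region of CUE4 and TSL1 (others 0.69 to 0.76), and the chaperone median was 0.12 on Spt3 C (others 0.21).

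Null A held 6644 values (others 6788 to 6814). Its list medians stood apart for trehalose and glycogen metabolism (0.0154, others -0.0987 to -0.0855), amino acid biosynthesis (0.15, others -0.01 to 0.01) and mitochondrial ribosomal proteins (0.11, others 0.01). Null B stood at 0.96 before MRPL35 (others 0.04 to 0.10).

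Between groups, 61 regions differed between Spt3 and Null and 259 between Spt3 and TAF1. Among the named regions the effect of Spt3 minus TAF1 passed in limma at DIP5 (0.65), the CWP1 segment (0.58), HTZ1 and PLB3 (0.53), ARG3 (1.05), RPL15B (0.57), MRPL35 (0.70) and ACT1 (-2.28), the last with Spt3 values from -4.62 to 0.31.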

How the results depend on the processing

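As shares of the regions tested, calls moved most with centring, weighting and the arrays in the model. Spt3 had 5.65% called, against 0.0156% without centring (0 higher, 1 lower), 9.57% with arrays scaled to equal spread, 18% with array weights, 0% from the Spt3 and Null arrays or the Spt3 arrays alone (12.5% and 15.5% unadjusted) and 2.01% to 5.29% with 1 array left out. Null had 0.0313%, against 87.1% without centring, 0.954% scaled, 0.25% with weights, 0.0149% with 2 values per group allowed, 0% from the Spt3 and Null arrays or its own alone (6.08% and 2.27% unadjusted), 19.3% without Null C and D and 0% to 10.8% with 1 left out. Spt3 minus Null had 0.954%, against 0.188% without centring, 2.61% scaled, 0.579% with a channel effect per group, 5.12% with weights, 0% from the Spt3 and Null arrays alone (8.0% unadjusted), 17.5% without Null C and D and 0.398% to 4.62% with 1 left out. Spt3 minus TAF1 had 4.05%, against 0% without centring (1.14% unadjusted), 2.42% scaled, 2.68% with a channel effect per group, 11.8% with weights and 1.41% to 4.89% with 1 left out. RNA had 37.2% of probes called, against 19.8% from the heat shock arrays alone and 15.1% to 35.7% with 1 left out. A replicate block by letter, which pairs nothing here, gave 3.43% for Spt3, 0% for Null (19.6% unadjusted), 0.594% for Spt3 minus Null and 2.19% for Spt3 minus TAF1. All calls are limma's.

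Chosen after seeing the data were the removal of Null A and B (0.126% for Spt3 minus Null), scaling without Spt3 B (0.91% for Null, 3.46% for Spt3 minus Null), and, for the difference between promoter and convergent medians, a channel effect taken off (0.119) and every annotated gene as a border (0.117). That difference, 0.120, was 0.0714 to 0.151 with 1 array left out, where the exact test cannot go below 0.0571, and passed in no alternative. Without centring, 9 named differences from Null changed sign. The 6 called in the full analysis went to 0.0021 downstream of CCT4, 0.020 at ERG4, 0.13 at region 2213, 0.13 at GDT1, 0.22 at BFR2 and 0.32 at RPL40A, and the 3 not called to 0.58 at HXK1 (segment 1), 0.08 at RPL12A and 0.20 at FRE8 and RPS0B. None of the 9 was called without centring, which adds 0.73 to each named difference measured on all 8 arrays. Of 844 values of named regions for Spt3 under alternatives 239 lost their call, and of 1095 for Spt3 minus Null 181 did. Both totals include regions not called in the full analysis, which had no call to lose. Among called regions alone the shares lost were therefore higher. The spread between 4 arrays limits what could be called.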
